A study of Mus musculus with 1119 samples.

Results

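The cells described here are single cells of the mouse hair bulb at postnatal day 30 (P30) that carry transcripts of Tchh while Krtap8-1 and Lgr5 stay below the same limit. They were chosen by their measured values, in TPM (transcript abundance scaled to a fixed sum per cell): at least 2000 genes reaching a TPM of 1, Tchh at 1 or more, and Lgr5 and Krtap8-1 below 1. The rule found 22, 19, 11, 24 and 28 such cells under the 5 sample title prefixes P1-3, P1-4, P1-5, P1-6 and P2-1. These prefixes are taken as plates here. They made up 27.4% of the hair bulb cells with that number of genes and 9.29% of the 1119 cells of the series. The hair bulb cells numbered 76, 78, 75, 74 and 81 by plate before the 5 cells short of the gene minimum were set aside. The 73 cells with all 3 genes below 1 are called the reference cells. The other classes are the Krtap8-1-positive cells without Lgr5 (25, 26, 31, 26 and 39 by plate), 52 Lgr5-positive cells without Krtap8-1, and 3 cells with both.

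The study sorted bulge stem cells, hair germ, basal matrix and dermal papilla of mouse back skin at successive stages of the hair cycle and sequenced full-length cDNA of single cells by Smart-seq2. The hair bulb cells, the Tchh-positive cells among them, came from Lhx2-GFP mice of the CD1 strain, of both sexes as labelled (Mixed), and were sorted with GFP, integrin alpha 6, integrin beta 1, CD34, Sca-1 and P-cadherin. The P21, P23 to P24 and P25 to P27 cells came from mice carrying Lgr5-eGFPiresCreER and R26-tdTomato, and the P30 dermal papilla cells from male K14-H2BGFP;LEF1-RFP mice. The authors' deposited annotation calls every Tchh-positive cell a matrix cell (transit-amplifying cell), as it does the rest of the hair bulb.

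Each GEO sample is 1 cell and no animal is named, so the hair bulb counts as 1 sample. No difference below was tested, and the 5 plates are read as technical spread only. A difference is that of mean log2(TPM + 1), which understates the change of genes at low levels, and a gene is counted as higher or lower when it reaches 1. "With" a gene means a TPM of 1 or more. Intervals of shares are exact Clopper-Pearson intervals at 95% and cover the counting of cells only.

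The hair bulb is the base of the growing follicle, where proliferating matrix cells around the dermal papilla give rise to concentric lineages. The medulla forms the core of the hair shaft, the cortex and cuticle surround it, and the inner root sheath moulds the shaft from outside. Trichohyalin, the product of Tchh, is made in both medulla and inner root sheath, where peptidylarginine deiminases citrullinate it and transglutaminases cross-link it to keratin filaments. Krt75 is a keratin of the medulla and the companion layer, Padi3 a deiminase and Foxq1 a forkhead factor whose loss in satin mice alters the medulla.

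Tchh reached a TPM of 1.08 in the lowest of these cells, 72.8 in the median cell and 1207 in the highest. The plate medians were 75.9, 20.6, 112.5, 154.5 and 47.9 in the order of plates given above. In 23 cells Tchh lay from 1 to under 10, in 36 from 10 to under 100 and in 45 at 100 or more. The 4 cells just inside the threshold had 1.08, 1.1, 1.18 and 1.31, and the 4 just outside 0.86, 0.82, 0.77 and 0.77, while 55 of the 73 reference cells were listed at 0. Tchh-positive cells made up 58.8% (51.1 to 66.1%) of the cells without Lgr5 and Krtap8-1. That share was 64.7%, 51.4%, 36.7%, 61.5% and 75.7% by plate, lowest on P1-5, where 11 cells met the rule.

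The Tchh-positive cells had fewer detected genes (TPM of at least 1) than the reference cells, with medians of 7030 and 7571. Ribosomal RNA took a median of 75.1% of their TPM against 72.8%, and the median difference over the 10107 genes compared was -0.22. With spike-in, ribosomal RNA and mitochondrial rows left out and the rest rescaled, the median difference was -0.02. The rule was applied again to the rescaled values, which gave more Tchh-positive cells and fewer reference cells, so this median does not come from the same cells. The part of these gaps in the results was not tested.

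The 3 marker genes given with Tchh for these cells, Krt75, Padi3 and Foxq1, were higher in the Tchh-positive cells on every plate. They were listed for these cells with earlier results of the same data known, so they describe the cells and are no independent support. Krt75 had a median TPM of 165.7 in the Tchh-positive cells (mean 166.7, highest 483.9) and was found in 87.5% (79.6 to 93.2%), against 27.4% (17.6 to 39.1%) of the reference cells, whose mean was 6.50. Its plate medians were 68.4, 174.7, 192.7, 152.1 and 188.5 in the Tchh-positive cells and at most 0.135 in the reference cells. The groups did not overlap by plate median, although single cells did, the highest reference cell having 173.2. The difference was 5.02 (3.44 to 5.95 by plate).

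Padi3 had a median TPM of 87.4 in the Tchh-positive cells (mean 106.8) and 0.610 in the reference cells (mean 6.02). It was found in 88.5% (80.7 to 93.9%) and 41.1% (29.7 to 53.2%) of them. The plate medians were 49.9, 59.6, 98.6, 112.9 and 77.4 against 1.16, 0.750, 0, 0 and 1.79. The 2 groups were apart by median on all 5 plates, with a difference of 4.31 (3.31 to 5.66). Single cells overlapped, and on P2-1 Padi3 was found in 7 of the 9 reference cells.

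Foxq1 had a median TPM of 67.4 in the Tchh-positive cells (mean 77.7) and 0 in the reference cells (mean 5.59). It was found in 80.8% (71.9 to 87.8%) and 21.9% (13.1 to 33.1%) of them. The plate medians were 58.2, 69.5, 54.3, 53.2 and 96.2 against 0 on 4 plates and 6.02 on P2-1, where 6 of the 9 reference cells carried Foxq1. The difference was 4.13 (3.13 to 4.49). Vdr, the vitamin D receptor, was the other member of the medulla list and was lower, with means of 8.97 and 23.5 and a difference of -1.31 (-2.58 to -0.21). Of the 4 genes of that list without Tchh, 3 were thus higher and 1 lower, with a median of 4.22 (3.23 to 5.07 by plate). Of all 10107 genes compared, 420 or 4.16% were higher by 1 and 700 or 6.93% were lower. These shares are the background for each count of listed genes against the reference cells. After the rescaling, with the classes chosen again and fewer reference cells, the counts were 1045 and 1007 of 10685. The share of higher genes among those past 1 was 50.9% there, against 37.5% before. The parts of the scaling and of the changed cells in that shift were not told apart.

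The promoter windows of Tchh, Krt75 and Padi3, which were high in the same cells, are printed below with that of Krt71, an inner root sheath keratin that was not. Each is the 250 bases before the RefSeq start on GRCm38.p6 (mm10), 5′ to 3′ on the strand of the gene. Capitals mark every match on either strand to TATAAA (known as the TATA box), TTCAAAG (TCF and LEF factors), TGTTTNC (forkhead factors), TTTATNGG (the HOX13 class) and AGATAA (for which the GATA factors are known). Tchh at chr3:93442080-93442329 (+), Krt75 at chr15:101573905-101574154 (-), Padi3 at chr4:140810649-140810898 (-) and Krt71 at chr15:101743098-101743347 (-) read as follows.
Tchh: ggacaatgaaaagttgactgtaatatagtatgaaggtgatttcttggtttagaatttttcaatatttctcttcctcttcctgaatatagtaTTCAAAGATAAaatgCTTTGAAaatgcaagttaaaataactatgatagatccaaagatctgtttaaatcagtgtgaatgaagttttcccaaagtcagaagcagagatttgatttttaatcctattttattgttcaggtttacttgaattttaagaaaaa
Krt75: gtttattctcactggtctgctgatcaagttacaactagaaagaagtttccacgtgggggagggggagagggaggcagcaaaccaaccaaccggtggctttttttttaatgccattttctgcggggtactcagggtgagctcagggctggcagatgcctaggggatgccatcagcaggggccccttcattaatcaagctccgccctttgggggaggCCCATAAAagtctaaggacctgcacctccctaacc
Padi3: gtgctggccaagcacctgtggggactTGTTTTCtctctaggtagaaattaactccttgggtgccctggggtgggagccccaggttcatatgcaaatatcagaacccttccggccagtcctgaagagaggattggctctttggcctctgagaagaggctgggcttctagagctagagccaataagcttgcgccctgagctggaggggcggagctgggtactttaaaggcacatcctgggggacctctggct
Krt71: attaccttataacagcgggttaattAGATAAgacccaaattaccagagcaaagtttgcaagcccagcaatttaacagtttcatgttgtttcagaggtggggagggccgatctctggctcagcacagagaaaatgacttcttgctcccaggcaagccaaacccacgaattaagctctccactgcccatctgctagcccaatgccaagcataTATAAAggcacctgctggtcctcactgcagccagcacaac
The Tchh window held TTCAAAG once on each strand, and an AGATAA that shares 2 bases with the first of them. The Krt75 window held 1 match to TTTATNGG on the opposite strand, 35 to 28 bases before the start. The Padi3 window held 1 match to TGTTTNC. Among 32851 windows of the same length, 4.46% held TTCAAAG, 2.49% TTTATNGG, 17.8% TGTTTNC, 9.99% AGATAA and 12.4% TATAAA. Krt71, Krt25, Krt27, Krt28, Tgm3 and Padi4 each had TATAAA, and Tchh, Krt75 and Padi3 had none. These matches describe the letters only.

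All 3 of Foxq1, Padi3 and Krt75 were found together in 83 of the Tchh-positive cells, or 79.8% (70.8 to 87%). By plate the share was 63.6%, 73.7%, 81.8%, 83.3% and 92.9%. It was 8.22% (6 of 73) in the reference cells and 11.5% (6 of 52) in the Lgr5-positive cells. In the Krtap8-1-positive cells it was 87.8%, with 95.7% of the 94 that also had Tchh and 73.6% of the 53 that did not. The 3 genes were thus common in both the Tchh-positive and the Krtap8-1-positive cells.

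**Figure D1:**
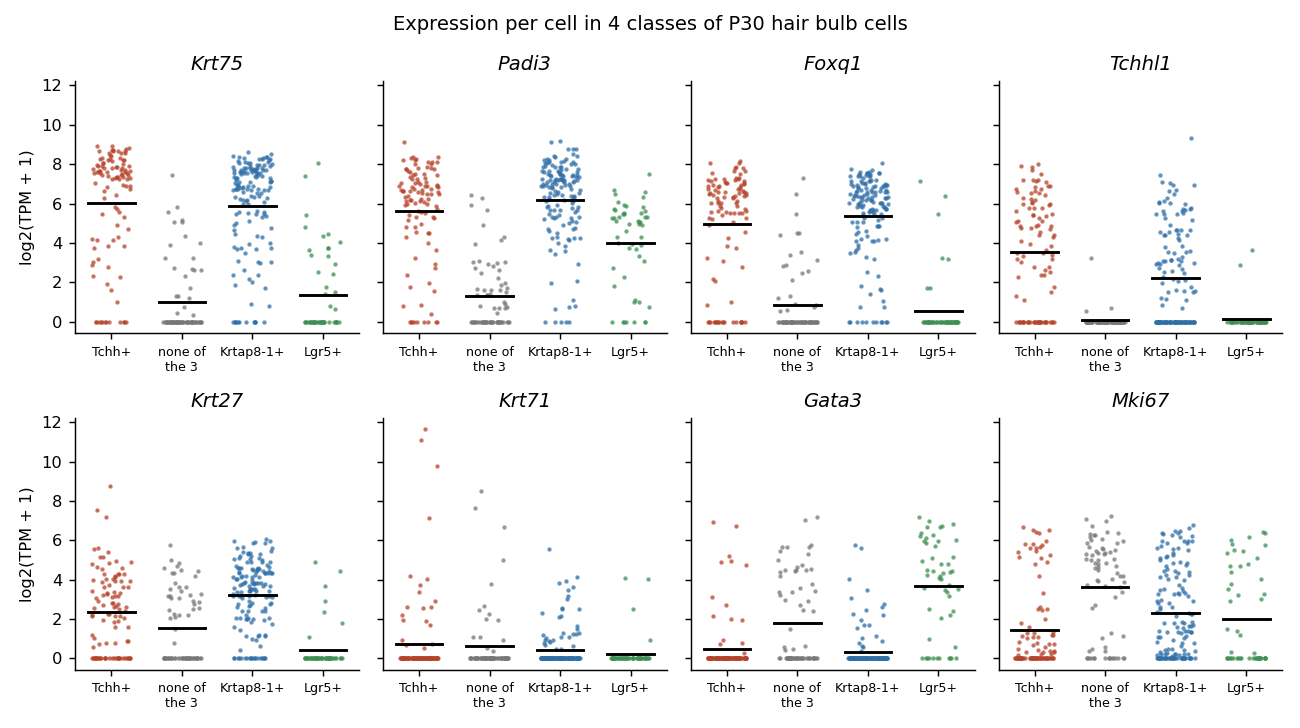
Log2(TPM + 1) of 8 genes in each cell of 4 hair bulb classes (Tchh-positive cells, reference cells, Krtap8-1-positive cells and Lgr5-positive cells), 1 point per cell, with black lines at the class means. Krt75, Padi3, Foxq1 and Tchhl1 are high in the Tchh-positive and Krtap8-1-positive cells, Krt71 is at or near 0 in most cells of every class, and Gata3 is highest in the Lgr5-positive cells.

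In the comparison of all cells, the keratins of the inner root sheath, the other lineage that makes trichohyalin, did not follow the medulla genes. Of the 15 genes listed for it, 3 were higher by 1 or more (Tchhl1, Tgm3 and Tgm1) and 2 were lower (Gata3 and Cux1), with a list median of 0.12 against -0.22 for all genes. Krt71 was found in 15.4% (9.06 to 23.8%) of the Tchh-positive cells and 16.4% (8.79 to 27%) of the reference cells, with a difference of 0.09. Its share was 22.7% (18.1 to 27.8%) in the separately deposited P30 dermal papilla cells, a mesenchymal class that should lack it. By share, the Tchh-positive cells were thus not above that background. The mean TPM of Krt71 was 62.8 in the Tchh-positive cells, 4 of which had 141.2 or more, and 3.53 in the dermal papilla cells. Krt73 was found in 9.62% of the Tchh-positive and 6.85% of the reference cells. For Krt28 the shares were 68.3% and 57.5%, and for Krt27 64.4% and 45.2% (difference 0.80, -0.40 to 1.38 by plate). Krt25 was found in 49% against 57.5%, with a difference of -0.89 (-2.17 to -0.05). That of Krt25 was 0.60 as a ratio of mean TPM, and 0.89 among cells with Mki67 and Top2a both below 1. Krt27 stood at 1.54 and Krt28 at 1.27 in those cells (44 and 16). Without the cells with 3 or more melanocyte genes (19 and 36 left), Krt25, Krt27 and Krt28 stood at 1.09, 1.95 and 1.06. In the P30 dermal papilla cells these 3 keratins were found in 21.4%, 9.21% and 7.24%. Krt72 and Krt74 were found in 1.92% of the Tchh-positive cells each, and Cdsn in none.

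Gata3, a transcription factor of the inner root sheath, was found in 11 of the Tchh-positive cells, or 10.6% (5.40 to 18.1%), against 41.1% (29.7 to 53.2%) of the reference cells. Its mean TPM was 3.52 against 12, and the difference was -1.33 (-2.73 to 0.13), with the Tchh-positive cells lower on 4 of 5 plates. Leaving out plate P1-5 brought it to -0.95, and among cells with Mki67 and Top2a both below 1 it was 0.02. Cux1, another factor listed for the sheath, was found in 93.3% and 95.9% of cells and was lower by level, at -1.02. Trps1, a GATA-type repressor, differed by 0.46. With these values the cells are named here by their Tchh, Krt75, Padi3 and Foxq1, and not as inner root sheath cells.

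Some of the genes listed as modifying or accompanying trichohyalin, 6 of 16, were higher by 1 in the same cells. Tchhl1, which encodes a trichohyalin-like protein and lies beside Tchh (chr3:93468754-93471980, with Tchh at chr3:93442330-93449077), had a median TPM of 15.4 and a mean of 41.7, against 0 and 0.130. It was found in 70.2% (60.4 to 78.8%) of the Tchh-positive cells and in 1 of 73 reference cells. By plate its mean was 35.1, 45.3, 57.9, 45.2 and 35.2 against at most 1.00. The groups were apart by mean on every plate, with a difference of 3.48 (3.26 to 4.44).

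Among the other S100-fused genes of that cluster, Rptn was found in 4.81% of the Tchh-positive cells, Crnn in 2.88%, Hrnr in 1.92% and Flg2 in none. Tgm3, a transglutaminase that acts on trichohyalin, was found in 79.8% against 19.2%, with means of 30.9 and 2.08 and a difference of 3.13 (1.96 to 3.43). Its neighbour Tgm6 had means of 51.2 and 1.5 and a difference of 3.50 (2.33 to 4.35), and Tgm1 a difference of 2.15 (1.06 to 2.58). Tgm2, the tissue transglutaminase, was found in 7.69% against 20.5% (difference -0.78), Tgm5 in 1.92% of the Tchh-positive cells, and Tgm7 in none. Beside Padi3 on chromosome 4, Padi4 was found in 60.6% against 16.4% (1.89, 1.41 to 2.53) and Padi1 in 33.7% against 5.48% (0.94), while Padi2 was found in 6.73% and Padi6 in 0.962%. In that list of S100-fused and cross-linking genes none was lower by 1, and the median was 0.16. The 6 were Padi3, Tgm6, Tchhl1, Tgm3, Tgm1 and Padi4, and 3 of them also stand in the inner root sheath list.

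Cornified envelope genes had a list median of -0.01, and 2 of 14 were higher beside 4.16% of all genes, Ivl (involucrin, a transglutaminase substrate, 3.39, 2.91 to 3.45 by plate) and Calml3 (a calmodulin-like protein, 2.11). Lor, Sprr1a and Krtdap, genes of the differentiated epidermis, were found in 20.2%, 0.962% and 0% of the Tchh-positive cells. Of the desmosome genes, 7 of 14 were higher and none lower, with a median of 0.89. They included the desmogleins Dsg3 (2.33) and Dsg2 (1.85), the plakophilin Pkp3 (1.97) and desmoplakin, Dsp (1.87). Lama3, a laminin chain of hemidesmosomes, was found in 82.7% against 24.7% (2.34), and its receptor subunit Itgb4 differed by 1.44.

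Keratins outside the 2 inner lineages were mixed. Krt17, listed with the companion layer together with Krt75, had means of 270.9 and 81.6 and a difference of 2.88 (1.52 to 3.98), while Krt6a was found in 0.962%, Krt6b in none and Krt16 in 9.62% of the Tchh-positive cells. Of 14 keratins of cortex and cuticle, Krt35 alone was higher by 1, found in 54.8% against 21.9% (1.14). Their median was -0.02 and became 0.20 after the rescaling. S100a3, a calcium-binding protein of the hair cuticle, was found in 80.8% against 31.5% (3.35), and Krtap15 in 53.8% against 6.85% (2.29), the 2 of 19 shaft genes past 1. Krt14 and Krt5, keratins of basal and outer root sheath cells, were lower (-1.41 and -1.30), with Krt5 at 0.46 among cells with Mki67 and Top2a both below 1.

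**Figure D2:**
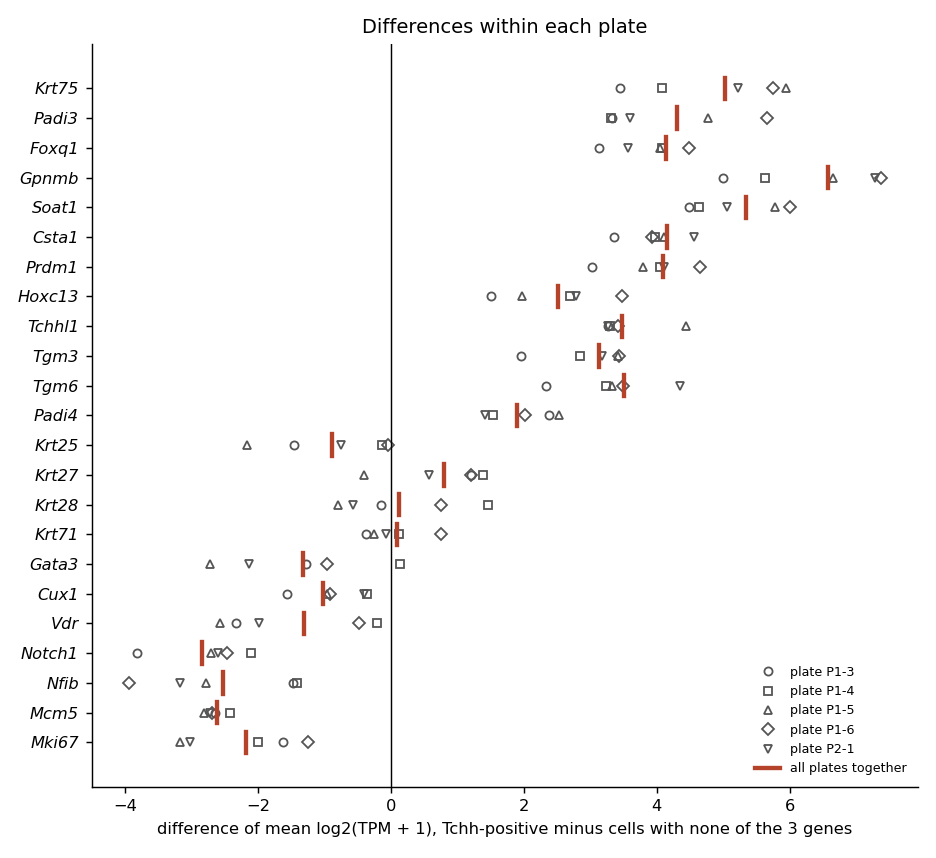
Difference of mean log2(TPM + 1) between Tchh-positive and reference cells for single genes, as a bar for all cells together and as 1 open symbol for each of the 5 plates. Krt75, Padi3, Foxq1 and Tchhl1 lie above 3 on every plate, Notch1 and Mki67 below -1 on every plate, and Krt28 and Krt71 on both sides of 0.

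The genes with the largest differences were outside the marker lists in most cases. Gpnmb, a transmembrane glycoprotein of lysosomes and melanosomes, had a median TPM of 810.4 in the Tchh-positive cells and 0 in the reference cells, with means of 802.5 and 50.8. It was found in 90.4% (83 to 95.3%) against 30.1% (19.9 to 42%), and its plate means of 682.9, 849.9, 731.5, 684.2 and 993.5 all stood above 27.8, 3.95, 137.5, 1.17 and 74.6. The difference was 6.58 (5.00 to 7.37). Soat1, which esterifies cholesterol and whose mutation gives the hair interior defect of the medulla in mice, had means of 716.3 and 38.9 and a difference of 5.34 (4.49 to 6.00).

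Other lipid genes among the 15 largest were Fabp4, a fatty acid binding protein (4.40), and Sptssb, a small subunit of serine palmitoyltransferase found in 67.3% against 4.11% (3.97). The protease inhibitor Csta1 differed by 4.15 and was found in 72.1% against 8.22%. The retinaldehyde dehydrogenase Aldh1a3 differed by 4.10 and the hormone gene Sct, secretin, by 4.04. Krt23 differed by 4.01, the small heat shock protein Hspb1 by 3.64, and Ass1, of arginine synthesis, by 3.63. Kitl, the ligand of the KIT receptor, had means of 263.8 and 32.3 and differed by 3.57 (1.77 to 4.21). Each of these had the same sign on all 5 plates, which was a condition for choosing the 15 largest.

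Transcription factors were found in both directions. Prdm1, a repressor of proliferation in many lineages, had means of 57.3 and 5.81 and was found in 83.7% against 16.4% (4.09, 3.02 to 4.65). Of 33 factors listed for the matrix, 7 were higher and 5 lower, beside 4.16% and 6.93% of all genes, and the list median was -0.02. Hoxc13, a homeodomain factor known to act upstream of Foxq1, was found in 84.6% against 45.2% (2.51, 1.51 to 3.47). Grhl1 (2.57), Ovol1 (1.51), Msx2 (1.39) and Dlx3 (1.32), factors of epidermal and hair differentiation, were higher as well. Klf5 (-1.33) and Lhx2 (-1.01), a factor of hair progenitors, were lower. The nuclear factor I genes Nfix and Nfib lay at -2.54 and -2.53.

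The NOTCH, WNT and FGF lists and that of BMP ligands and inhibitors each held genes higher and genes lower by 1. Notch1, a receptor, was found in 33.7% against 86.3% of cells, with plate medians of 0.120, 3.03, 0, 0 and 0 against 53.2, 30.2, 20.6, 8.73 and 12.4. The reference cells were higher on each plate, and the difference was -2.85 (-3.83 to -2.10). The NOTCH ligand Jag2 was higher (1.16), and the receptor Notch3 (-1.06), the modifier Lfng (-1.32) and the target Nrarp (-1.54) lower, or 1 higher and 4 lower of 19.

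Of 11 WNT ligands, Wnt3 was found in 68.3% against 15.1% (2.29, 2.15 to 2.50 by plate), and Wnt10b (-1.16) and Wnt6 (-1.01) were lower. Of 14 WNT response genes, Axin2 (1.22), Tcf7 (1.18) and Notum (1.10) were higher and Ccnd1 was lower (-1.12). In the BMP pathway the ligand Bmp2 (2.02) and the decoy receptor Bambi (2.84) were higher and the ligand Bmp4 lower (-1.17), and of the response genes Id1 stood at 1.51. The hedgehog effectors Gli2 (-1.57) and Gli1 (-1.01) were lower. The receptors Fgfr1 (-2.46) and Fgfr3 (-2.2) were lower, while the response genes Dusp6 (1.39) and Etv4 (1.10) were higher.

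All 18 S phase genes and all 20 G2/M genes had lower means in the Tchh-positive cells, 17 and 16 of them by 1 or more. The list medians were -1.76 (-2.27 to -1.09 by plate) and -1.29 (-2.45 to -0.42). Mcm5, a subunit of the replicative helicase, was found in 33.7% against 83.6% (-2.62, -2.82 to -2.42). Mki67 was found in 35.6% against 74%, and by plate in 9, 7, 2, 10 and 9 of the Tchh-positive cells against 10 of 12, 13 of 18, 15 of 19, 9 of 15 and 7 of 9 reference cells. The share was higher in the reference cells on every plate, with a difference of -2.18. Of the 15 genes with the largest differences downwards, 6 were replication-dependent histone genes led by Hist1h2ap (-2.91), whose near-identical copies may share reads, and their values are uncertain. The cell cycle inhibitors Cdkn1a (p21, 2.78) and Cdkn2b (p15, 2.23) were higher. The list of 11 cell cycle exit genes had 2 higher by 1, 1 lower by 1 and a median of -0.03.

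Cells with Mki67 were fewer among the Tchh-positive cells, and the comparison was repeated in cells with Mki67 and Top2a both below 1, which left 44 and 16 cells. The medulla genes were as high there, at 5.98 for Krt75, 5.07 for Padi3 and 4.60 for Foxq1, and Notch1 differed by -1.34. The inner root sheath median was 0.89, against 0.12 in all cells.

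**Figure D3:**
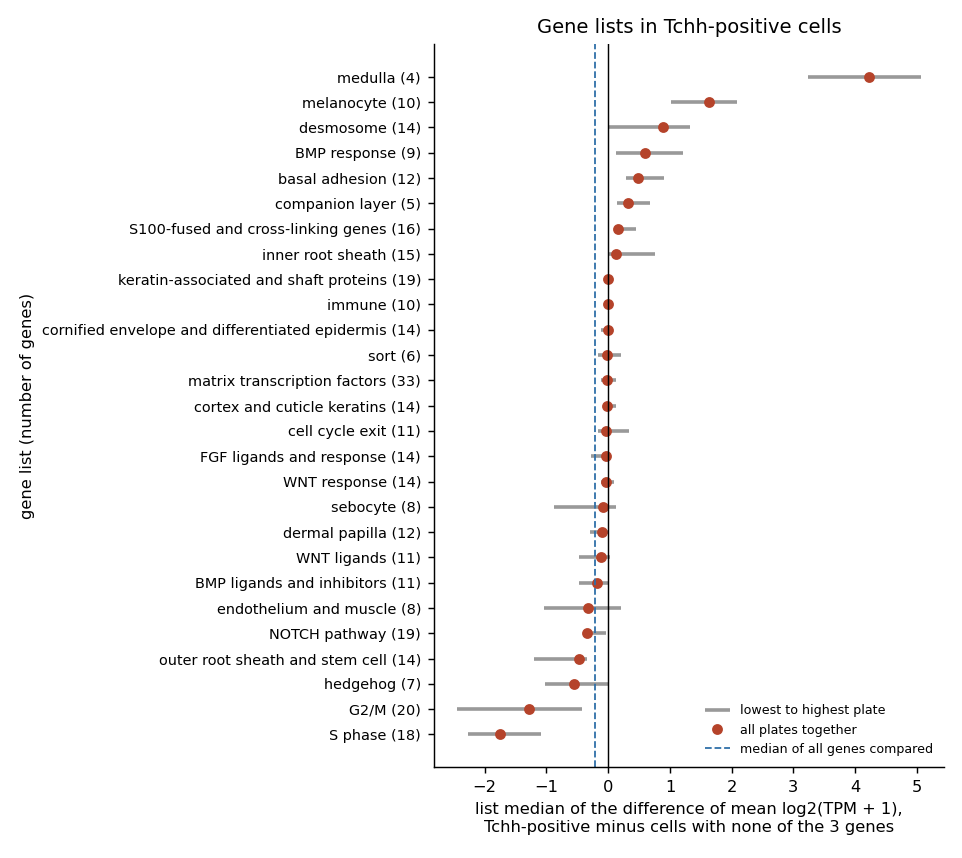
Median difference of mean log2(TPM + 1), Tchh-positive minus reference cells, for 27 gene lists (number of genes in brackets), with a point for all cells, a grey line from the lowest to the highest plate and a dashed line at the median of all genes compared (-0.22). The medulla list stands highest at 4.22, the melanocyte list next at 1.64, and the S phase list lowest at -1.76.

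Pigment cell genes were found in many of the Tchh-positive cells. Of 10 melanocyte genes, 6 were higher by 1 or more and 1 lower, with a median of 1.64 (1.01 to 2.09 by plate); Gpnmb is 1 of the 6. Mlana, a melanosome protein, was found in 59.6% against 13.7% (2.43, 1.58 to 3.51), and Tyrp1, of melanin synthesis, in 55.8% against 8.22% (2.18). Pmel, the melanosome fibril protein, was found in 52.9% against 12.3% (2.0), Dct in 88.5% against 60.3% (2.0) and Tyr, tyrosinase, in 73.1% against 39.7% (1.28). The regulators were less apart, with Mitf at 0.78 and Sox10 at 0.41 (25% against 9.59%), and the receptor Kit was lower, at -1.88. The highest single cell had a Pmel TPM of 6293. The summed TPM of the 10 genes ran from 0 to 18793 (median 1008), against 0 to 8076 (median 45.3) in the reference cells. Gpnmb is part of that sum and alone had a median of 810.4 in the Tchh-positive cells. Among the other genes the median there was highest for Dct, followed by Mlana (12.7), Tyr (2.89), Tyrp1 (2.88) and Pmel (1.77). The summed median is thus mainly a value of Gpnmb.

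At least 3 of these 10 genes were found in 81.7% of the Tchh-positive, 50.7% of the reference, 90.5% of the Krtap8-1-positive and 19.2% of the Lgr5-positive cells. Within the Tchh-positive cells, the 62 with Mlana had Krt75 in 98.4% and Foxq1 in 90.3%, and the 42 without it in 71.4% and 66.7%. Without the cells with 3 or more melanocyte genes, 19 and 36 cells were left, and the differences of Krt75, Padi3 and Foxq1 were 2.69, 3.36 and 2.2. Gpnmb counts among these genes, so that step also took out cells by a gene that goes with Tchh. Doublets were not called, and the part of melanocyte RNA in the differences was not tested.

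Cells with genes of the dermal papilla and of endothelium and muscle were rarer among the Tchh-positive cells than among the reference cells, while those with sebocyte-listed genes were more frequent. At least 3 of 12 dermal papilla genes were found in 7.69% against 27.4%, with summed TPM of 0 to 2748 (median 1.53) against 0 to 2142 (median 73.5), and Sox2, Rspo3 and Sox18 were below 1 in all Tchh-positive cells. Dcn, decorin, of the mesenchyme, was found in 12.5% against 53.4% (-2.54). At least 3 of 8 endothelial and muscle genes were found in 7.69% against 17.8%, with summed TPM of 0 to 4247 against 0 to 5026, and Cdh5, Kdr and Emcn were below 1 in all of them. No Tchh-positive cell had 3 of 10 immune genes, which allows a share of up to 3.48%. At least 3 of 8 sebocyte genes were found in 67.3% against 31.5%, carried by the general lipid genes Scd1, Fasn and Plin2, and the sebocyte genes Mc5r, Elovl3 and Cidea were below 1 in every Tchh-positive cell. Without the cells with 3 or more dermal papilla or endothelial and muscle genes, the differences of Krt75, Padi3 and Foxq1 were 5.33, 4.67 and 4.13.

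Fewer genes differed by 1 from the Krtap8-1-positive cells than from the reference cells. Of 9604 genes compared, 3 or 0.0312% were higher in the Tchh-positive cells by 1 and 1.08% were lower, with a median of -0.27 over all genes. That order turned in the cells without 3 or more melanocyte genes (19 Tchh-positive cells), where 1.78% were higher and 13.2% lower than in the Krtap8-1-positive cells, against 2.49% and 7.63% for the reference cells. The 3 genes were Fabp4 (1.85, 0.65 to 2.82 by plate), Tchhl1 (1.35, 0.37 to 2.56) and the predicted gene Gm26377 (1.03, -1.44 to 2.46). Tchhl1 was found in 70.2% against 52.4%. The medulla genes differed little, with Krt75 at 0.16, Foxq1 at -0.40 and Padi3 at -0.60, and the inner root sheath median was -0.06. Tchh itself, used to choose 1 class only, was at 1 or more in 94 or 63.9% of the Krtap8-1-positive cells.

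Lower than in the Krtap8-1-positive cells were the keratin Krt5 (-1.95, -2.64 to -1.33), the surface protein Cd24a (-1.87), the growth factor Ptn (-1.77) and the zinc finger factor Egr2, found in 10.6% against 40.8% (-1.72). Cldn10, a claudin (-1.63), Lamb1, a laminin chain (-1.54), Stmn1, which binds tubulin (-1.52), and the ephrin Efnb1 (-1.45) followed. The shaft regulators Lef1 (-1.37), Msx1 (-1.19) and Hoxc13 (-1.05), the keratin Krt83 (-1.05) and S100a3 (-1.22) were lower too, as were Wnt5a (-1.40) and Bmp7 (-1.33). Without plate P1-4, 1.82% of genes in place of 1.08% were lower. All 18 S phase and all 20 G2/M genes had lower means, none by 1, with medians of -0.40 and -0.42 beside -0.27 for all genes. The Krtap8-1-positive cells had a median of 7800 detected genes.

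More genes differed by 1 from the Lgr5-positive cells. Of 9965 genes compared, 736 or 7.39% were higher in the Tchh-positive cells and 979 or 9.82% lower, with a median of 0.01. Here 4 plates had 5 or more cells of both classes. Higher were Gpnmb (7.29), Kitl (5.85), Fabp4 (5.53) and Ass1 (5.49), and Krt75 (4.66) and Foxq1 (4.42) among the medulla genes. Padi3 differed least of the 3, at 1.61 (0.67 to 2.78), and it was found in 82.7% of the Lgr5-positive cells against 88.5%. Lower were Krt15, a stem cell and outer root sheath keratin found in 17.3% against 94.2% (-6.39), the protease inhibitor Timp3 (-6.04), Fgfr3 (-5.23), Vdr (-5.01), Krt5 (-4.46) and Gata3 (-3.20). In the list of the outer root sheath with stem cells, 12 of 14 genes were lower by 1 or more. Of 15 inner root sheath genes 7 were higher and 1, Gata3, was lower, Krt25 among the higher ones at 1.56 (1.40 to 1.99). No G2/M gene differed by 1 in either direction, with a list median of 0.01.

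Within the Tchh-positive cells Krt75, Padi3 and Foxq1 were found more often at higher levels of Tchh, while Vdr, the other gene of the medulla list, had a rank correlation with Tchh of -0.14. In the 23 cells with Tchh below 10, Krt75 was found in 60.9%, Padi3 in 56.5%, Foxq1 in 39.1% and Tchhl1 in 30.4%. In the 36 cells from 10 to under 100 the shares were 94.4%, 97.2%, 91.7% and 72.2%, and in the 45 cells at 100 or more 95.6%, 97.8%, 93.3% and 88.9%. Notch1 went the other way, at 73.9%, 36.1% and 11.1%, and Mki67 was found in 12 of 23, 18 of 36 and 7 of 45 cells. Gata3 was found in 13%, 11.1% and 8.89%.

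Ranked over the Tchh-positive cells against Tchh, the genes most like it of 8055 were Tchhl1 (Spearman's rho 0.71), Ass1 (0.70), Padi3 (0.69), Syt7 and Grhl1 (0.64 each) and Dgat2 (0.62). Krt75 stood at 0.54, Foxq1 at 0.47, Krt27 at 0.15 and Krt25 at -0.12, and the most opposed gene was Igsf3 (-0.59). These are descriptions across cells that share plates, a tissue and differences in gene number, for which rho with Tchh was -0.27.

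**Figure D4:**
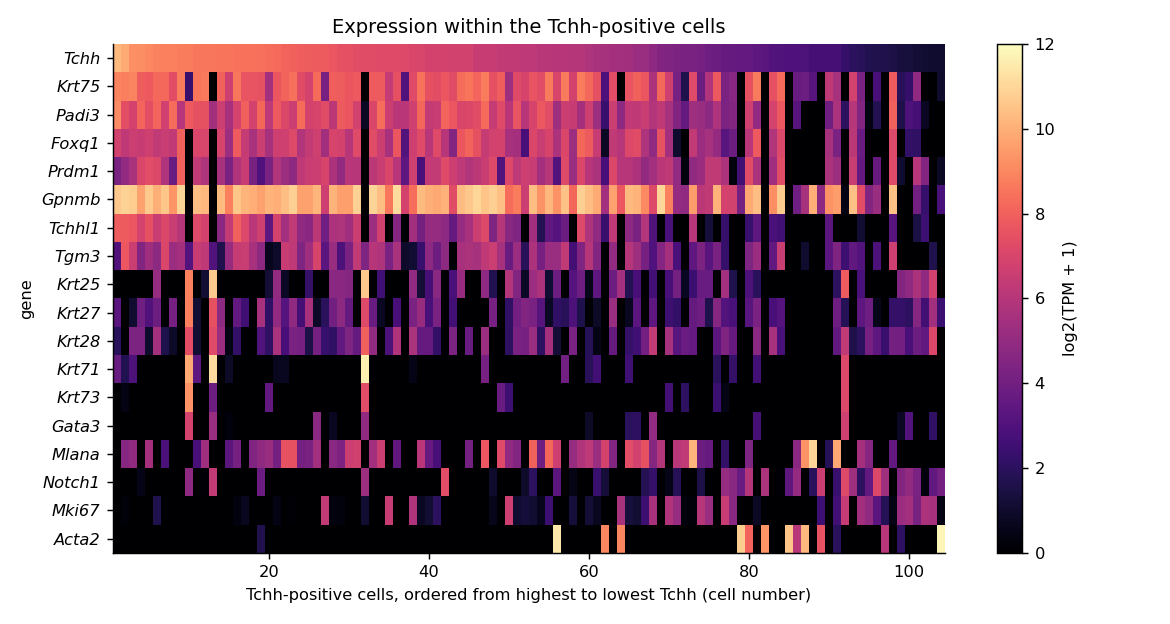
Log2(TPM + 1) of 18 genes (rows) in the Tchh-positive cells (columns), ordered from the highest to the lowest Tchh. Krt75, Padi3, Foxq1, Prdm1 and Gpnmb are present through most of the range and sparser in the 23 cells below a Tchh TPM of 10. Krt71 and Krt25 are highest in the same 4 cells, which also have Krt73 and Gata3.

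Of the Tchh-positive cells, 10 had none of Foxq1, Padi3 and Krt75 and 11 had 1 or 2 of them. In the 10, Tchh had a median of 3.92 (1.08 to 157.8), Cd200, a membrane glycoprotein, was found in 9, Vim, vimentin, in 7, and Acta2, smooth muscle actin, and Cav1, caveolin, in 6 each. At least 3 endothelial and muscle genes were found in 3 of the 10 and in 2 of the 83 cells with all 3 medulla genes. Set against the 20 cells without Foxq1, the 84 with it were higher in Gpnmb (6.67), Soat1 (6.18), Krt75 (6.01), Kitl (5.11) and Padi3 (5.10). They were lower in Acta2 (-3.79), Cav1 (-3.37), Cd200 (-3.35) and Notch1 (-3.21).

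Keratins listed for the inner root sheath were found at low levels beside the medulla genes. At least 1 of Krt25, Krt27 and Krt28 was found beside all 3 medulla genes in 73 cells, or 70.2%. In the 83 cells with all 3 medulla genes the mean TPM of Krt25 was 8.70 (median 1.25), that of Krt27 9.11 and that of Krt28 12.5. In the P30 dermal papilla cells, where 21.4%, 9.21% and 7.24% had these keratins, the means were 1.81, 0.661 and 0.842. The 51 cells with Krt25 had Foxq1 in 86.3% and Krt75 in 88.2%, and the 53 without it in 75.5% and 86.8%. The 16 cells with Krt71 had higher Serpinb5, a serpin (3.24), and Metrnl, a secreted protein (2.73), than the 88 without it. L1cam, an adhesion molecule, was higher too (2.37), and Odc1, of polyamine synthesis, was lower (-2.75). These 16 include the 4 cells described next, whose mean Serpinb5 TPM was 164.4 against 58.6 over the 16. For L1cam the means were 17.6 and 13.5.

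A small set of 4 cells, singled out after their values were seen, had all 6 of Krt71, Krt25, Krt27, Krt28, Krt73 and Gata3. Their Krt71 TPM was 3197, 2216, 888.8 and 141.2, while the highest value in the other 100 cells was 17. Krt25 was at 1589, 1661, 449.1 and 231.6 in the same order, and Gata3 at 28.4 or more in each. Foxq1, Prdm1 and Tchhl1 were listed at 0 in all 4, Gpnmb at 0.380 or less, and Krt75 at 0, 0, 3.94 and 0. Padi3 was at 0.780, 42, 219.8 and 2.93 and Tchh at 157.8, 382.4, 431.2 and 3.79, so that these cells carried Tchh without Foxq1. Of the 4, 3 came from plate P1-6 and 1 from P1-4. Without them, the difference of Krt75 was 5.23, that of Gata3 -1.55 and that of Krt25 -1.19.

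Outside the P30 hair bulb, Tchh was rare in epithelial cells and low in all cells. It was found in 54.6% (49.5 to 59.7%) of hair bulb cells, 10 P25 to P27 matrix cells (5.10%, 2.47 to 9.18%), 5 of 68 P23 to P24 hair germ cells, none of 16 P25 to P27 hair germ cells (up to 20.6%), and 1 of 68 hair germ and 3 of 39 bulge cells at P21. The highest matrix cell had 11.5. Of the P25 to P27 matrix cells 5 met the whole rule, with Foxq1 in 2, Krt75 in 2 and Padi3 in none, and 94 lacked all 3 rule genes. Tables were deposited separately, so these levels stand side by side only.

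In the P30 dermal papilla cells, which should lack it, Tchh was at 1 or more in 98 cells (32.2%, 27 to 37.8%), with a median of 3.54 in those 98 and a highest value of 26.7. The median number of genes there was 5888, against 7413 in the hair bulb. The 23 Tchh-positive hair bulb cells below 10 lie within that range. Of the 72 dermal papilla cells that met the rule, Foxq1 was found in 2, Padi3 in 4 and Krt75 in 5. With Tchh at 10 or more as the threshold, 81 hair bulb cells remained, of which 91.4% had all 3 medulla genes.

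**Figure D5:**
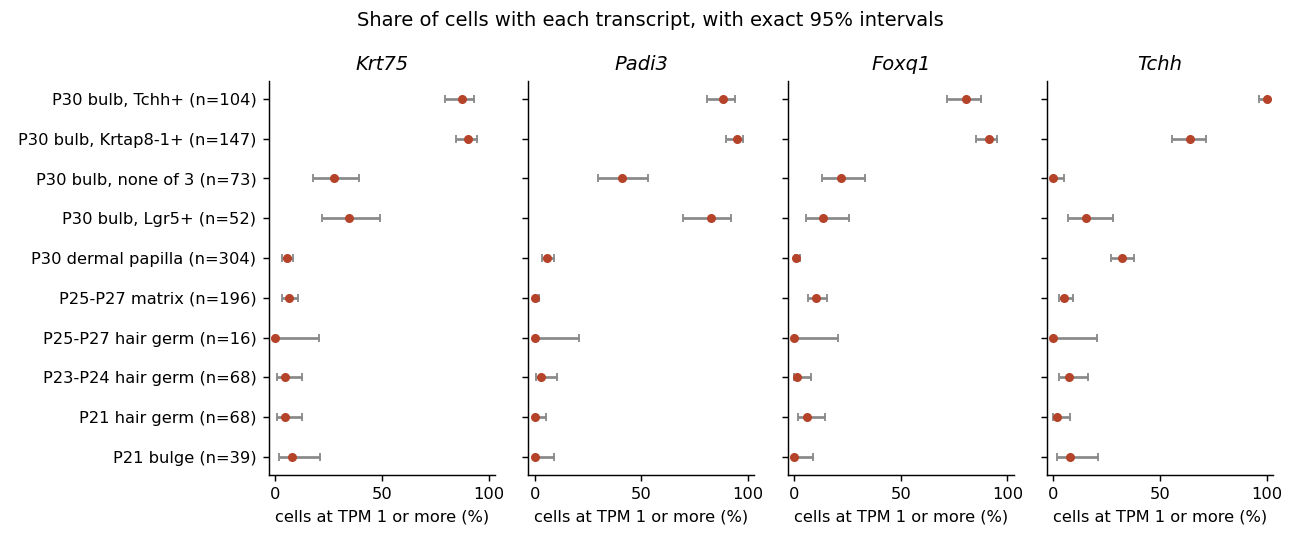
Percent of cells with Krt75, Padi3, Foxq1 and Tchh at a TPM of 1 or more in each group of the series and each hair bulb class (n beside the names), with exact 95% intervals. Krt75 and Foxq1 are above 80% in the Tchh-positive and Krtap8-1-positive cells only among the 10 rows, Padi3 is also above 80% in the Lgr5-positive cells, and the Tchh row at 100% is set by the rule.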

How the data were processed

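The values are the TPM deposited by the authors, 1 column per cell, with 46609 rows. The submitters' processing notes name Bowtie2 2.2.9, RSEM 1.2.30 and mm10. The dermal papilla file separates its values with the characters / and t and was read that way. Columns summed to between 999999.02 and 1000000.77, and TPM keeps no read depth. A deposited table of other labels gave the authors' cell types. The lists leave out 2 listed genes that stand on several rows. The 3 rule genes were left out of the counts, as were 92 spike-in, 186 ribosomal RNA and 37 mitochondrial rows.

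The rule above gave 104 Tchh-positive, 73 reference, 147 Krtap8-1-positive and 52 Lgr5-positive cells among 379 of 384 hair bulb cells. Differences were counted over genes detected in at least 30% of the cells of 1 class. The pseudocount was 1. Named were all members of the medulla, inner root sheath, cross-linking and melanocyte lists, up to 6 of each other list by absolute difference, and the 15 (8 in the other contrasts) genes of largest difference each way with 1 sign on every plate with 5 or more cells of each class. The members and the 27 lists were chosen with earlier results of these data known. The measure of difference was checked on the Tchh-positive and reference cells, dealt again at random, with known folds put into well-detected genes. Shares and their intervals were not part of that check. Positions came from GENCODE M21 and promoters from RefSeq on GRCm38.p6, where 1 of the genes looked up, Foxq1, has no entry. Python 3.11.15, NumPy 2.4.6, SciPy 1.17.1, pandas 2.3.3 and Matplotlib 3.10.9 were used. Alternatives covered the gene minimum, Tchh threshold, scaling, pseudocount, ratio of means, detection filter, cycling cells, gene number, melanocyte genes and each plate. Leaving out cells with genes of other types or the 4 cells with 6 inner root sheath genes was added after the data were seen.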

Additional observations from a re-analysis of the deposited data

How the results depend on the processing

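The share of Tchh-positive cells stayed within its interval of 58.8% under the alternatives of gene minimum and scaling, and was 54.3% to 63.3% with each plate left out. At Tchh of 10 or more, the cells with Tchh from 1 to under 10 were left out of both classes. The share computed there covers fewer cells than that of 58.8% and cannot be set against its interval. Counted as negative, those cells would lower it. The named genes past 1 kept their sign except under 2 settings, the cells with Mki67 and Top2a both below 1 (13 turned, 44 and 16 cells) and the cells without 3 melanocyte genes (4 turned, 19 and 36 cells). These filters act on some of the genes that turned: Mki67, and the cell cycle genes that go with it, in cells chosen for low Mki67 and Top2a, and Mlana and Tyrp1 in cells chosen to lack melanocyte genes. Their values there, and the G2/M and melanocyte medians, are set by the choice of cells. For the other genes that turned, the cause was not tested. Keeping the sign did not mean staying past 1. At a pseudocount of 10, most of the named genes past 1 (60) came to a difference under 1. Without the cells with 3 melanocyte genes 36 did, and in the cells with Mki67 and Top2a both below 1, 32 did. Under each of the other settings it was 12 or fewer.

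Counts of genes are given as a percent of the genes compared in the main analysis of that contrast. Genes higher than in the reference cells (4.16%) came to 10.3% after rescaling, 8.95% and 0.881% at pseudocounts of 0.1 and 10, 13.2% in the Mki67- and Top2a-low cells, 7.76% in cells of middle gene number and 2.49% without melanocyte-gene cells. Genes lower (6.93%) came to 18.6% and 0.584% at the 2 pseudocounts, 12.9% in the Mki67- and Top2a-low cells, 11.9% at middle gene number and 10.7% without cells with dermal papilla or muscle genes. With each plate left out the shares were 3.74% to 4.87% and 6.21% to 9.46%. The medulla median (4.22) was 5.09 at Tchh of 10 or more, 4.99 rescaled, 5.87 and 2.35 at the 2 pseudocounts, 5.03 at middle gene number and 2.45 without melanocyte-gene cells (3.98 to 4.46 by plate left out). The inner root sheath median (0.12) was 0.45 rescaled, 0.60 as a ratio of means, 0.89 in the Mki67- and Top2a-low cells, 1.09 without melanocyte-gene cells and 0.03 to 0.26 by plate left out. The G2/M median (-1.29) was -2.18 at a pseudocount of 0.1, 0.00 in the Mki67- and Top2a-low cells and -1.51 to -1.02 by plate left out. The cortex and cuticle median (-0.02) was 0.20 rescaled, 0.04 at a pseudocount of 0.1, 0.05 in the Mki67- and Top2a-low cells, 0.13 at middle gene number, 0.08 without melanocyte-gene cells and -0.03 to 0.02 by plate left out.

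Genes higher than in Krtap8-1-positive cells (0.0312%) came to 0.156% at Tchh of 10 or more, 0.115% rescaled, 0.208% and 0.0104% at the 2 pseudocounts, 0.25% as a ratio of means, 0.198% in the Mki67- and Top2a-low cells, 0.260% at middle gene number, 1.78% without melanocyte-gene cells and 0.0208% to 0.0729% by plate left out. Genes lower (1.08%) came to 4.62% rescaled, 12.8% and 0.0104% at the 2 pseudocounts, 0.604% as a ratio, 4.25% in the Mki67- and Top2a-low cells, 0.635% at middle gene number, 13.2% without melanocyte-gene cells and 1.04% to 1.82% by plate left out. Against Lgr5-positive cells, the share of higher genes (7.39%) was 11.3% rescaled and also in the Mki67- and Top2a-low cells, 19.3% and 1.32% at the 2 pseudocounts and 7.13% to 9.39% by plate left out. That of lower genes (9.82%) was 18.1% and 2.4% at the 2 pseudocounts and 9.64% to 10.5% by plate left out. At Tchh of 10 or more the share with all of Foxq1, Padi3 and Krt75 was 91.4% in place of 79.8% (75.0% to 84.1% by plate left out), and the share of P25 to P27 matrix cells with Tchh 0.510% in place of 5.10%.

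Signs turned in the Mki67- and Top2a-low cells for Hist1h2ap (0.20), Hist1h3h (0.01), Hist2h3b (0.06), Gata3 (0.02), Krt5 (0.46), Wnt10b (0.08), Mcm7 (0.33), Uhrf1 (0.60), Mki67 (0.02), Ccna2 (0.08), Aurkb (0.10), Ccnb1 (0.35) and Kit (0.12). Without melanocyte-gene cells they turned for Cux1 (0.03), Mlana (-0.08), Tyrp1 (0.00) and Plin2 (-1.06), and the melanocyte median was 0.00. No paired analysis was possible because no result comes from a test and the replicate numbers only name single cells. Differences within each plate stand beside the results.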
